A study of Rattus norvegicus with 60 samples.

Results

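The distal convoluted tubule and WNK pathway genes are 9 of the 32545 genes in the deposited table, taken by symbol: Slc12a3, Wnk1, Wnk4, Stk39, Oxsr1, Klhl3, Cul3, Pvalb and Trpm6. RNA was sequenced from kidney cortex and outer medulla of rats of 2 strains, the wild-type Dahl salt-sensitive rat (SS), which becomes hypertensive on a salty diet, and NOX4 knockout rats derived from it (NOX4), in which the gene of NADPH oxidase 4 is disrupted. Animals of each strain were kept under control conditions (LS) or were given a diet with 4.0% NaCl for 7 days (HS7) or 21 days (HS21), which gave 12 groups of strain, diet and tissue with 5 libraries each. By its title, the study concerns this oxidase and metabolic stress in the kidney. The labels do not say whether the knockout rats are a single line, give no age or sex, do not state the salt content of the control diet, and do not say that libraries of a group came from separate animals, so p-values measure the spread between these libraries, part of which may be technical.

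The distal convoluted tubule is a short nephron segment that reabsorbs sodium chloride through the thiazide-sensitive cotransporter NCC, encoded by Slc12a3. WNK kinases activate the kinases SPAK (Stk39) and OSR1 (Oxsr1), which phosphorylate NCC, while a ubiquitin ligase of cullin 3 (Cul3) and its adaptor KLHL3 (Klhl3) sends WNK kinases to degradation. Control of this cascade acts largely on phosphorylation and protein turnover, which RNA levels do not measure. The kidney also makes a short, kinase-deficient Wnk1 transcript in this segment, and the gene-level counts used here sum all transcripts of a gene. Trpm6, a magnesium channel, and Pvalb, the calcium-binding protein parvalbumin, are further genes used to mark the segment.

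The promoters of 3 members are shown: each of these genes differed between strains in cortex, has a single window in the table, and holds a core promoter motif. Of the 9 members, 8 have an entry in the RefSeq promoter table of the GRCr8 assembly, and the 250 bases before the annotated start are printed 5′ to 3′ on the gene's strand. Capitals mark the motif: TATAAA, 32 bases before the start of Slc12a3 (chr19:10675051-10675300, minus strand), and the CCAAT box, on the gene's strand 199 bases before the start of Wnk1 (chr4:154926148-154926397, minus strand) and on the opposite strand, read as ATTGG, 34 bases before the start of Klhl3 (chr17:6528237-6528486, plus strand).
Slc12a3: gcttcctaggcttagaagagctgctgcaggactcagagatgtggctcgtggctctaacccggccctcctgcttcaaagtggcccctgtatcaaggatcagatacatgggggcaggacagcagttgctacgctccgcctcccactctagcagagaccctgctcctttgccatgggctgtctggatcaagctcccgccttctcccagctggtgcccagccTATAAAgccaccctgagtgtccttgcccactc
Wnk1: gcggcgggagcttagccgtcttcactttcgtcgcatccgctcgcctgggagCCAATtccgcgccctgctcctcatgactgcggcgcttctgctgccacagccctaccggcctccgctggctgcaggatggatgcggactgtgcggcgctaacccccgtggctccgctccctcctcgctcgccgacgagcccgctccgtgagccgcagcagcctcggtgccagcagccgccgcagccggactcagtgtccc
Klhl3: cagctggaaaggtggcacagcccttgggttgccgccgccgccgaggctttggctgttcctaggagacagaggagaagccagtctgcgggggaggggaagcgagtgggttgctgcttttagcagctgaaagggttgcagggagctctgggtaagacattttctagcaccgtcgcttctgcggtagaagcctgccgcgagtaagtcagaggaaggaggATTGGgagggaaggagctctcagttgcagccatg
Searched on both strands in the 250 bases before the start of 27457 genes, TATAAA was present in 13.1% and CCAAT in 34.3%. The receptor and HNF1 motifs GTTAAT (6.5%), AGGTCA (13.7%) and TGTTCT (17.1%) were also searched and are not in these 3 windows; no motif overlapped another. Of the 3 printed windows, the Slc12a3 window alone held TATAAA, and it was 59.2% G and C, against 70.8% for Wnk1, 59.6% for Klhl3 and a median of 52% over all promoters. Of the members whose windows are not printed, Trpm6 held CCAAT or TGTTCT in its windows and Pvalb held TGTTCT. Stk39, which also differed between strains in cortex, Oxsr1 and Wnk4 held none of the motifs searched. The printed windows were chosen for holding a motif, so their matches cannot be set against the shares of all genes. A match is a description of letters and not a binding site.

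Library totals ran from 11.49 to 29.56 M counts. The targeted gene was lower in the knockout cortex in every library: Nox4 ranged over 54.7 to 77.7 CPM, against 251 to 530 CPM in SS cortex, where CPM is the count scaled for depth and library composition. Low complexity, here at least 10 unread genes among those of 2 to 5 CPM in the median library, marked 11 of the 60 libraries. All 11 were SS: 5 cortex and 6 outer medulla libraries, none of them from HS21. In NOX4 cortex at HS7, replicates 3 and 4 (libraries C_62 and C_63) stood apart, with 1.82 and 3.38 CPM over the red blood cell markers against 25.8 to 123 CPM in the other 28 cortex libraries. Library numbers of SS come before those of NOX4 in both tissues. Within each strain they run from LS to HS7 to HS21, apart from C_62 and C_63. Neither strain nor diet can thus be told apart from library order.

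In cortex the cotransporter gene stood far above its regulators. Per kilobase of gene, as deposited FPKM over 30 libraries, Slc12a3 had 164.1 ± 52.1 (SD), Wnk1 56.2 ± 9.46, Cul3 24.8 ± 2.52 and Oxsr1 18.96 ± 1.15, and in this part of the order each gene was above the next in all 30 libraries. Klhl3, with 11.7 ± 3.16, and Stk39, with 10.5 ± 1.85, were not cleanly ordered, since Klhl3 was the higher in 23 of 30 libraries. Trpm6 (6.27 ± 0.91 FPKM) and Wnk4 (6.21 ± 1.28 FPKM), the WNK kinase best known for its action on NCC, had nearly the same level, with Trpm6 the higher in 16 of 30. FPKM depends on the gene length used, which the deposited table gives as 1401 bases for Klhl3 and 10912 bases for Wnk1. Whether the short length of Klhl3 covers its untranslated parts is not given, and its place above Stk39, Trpm6 and Wnk4 rests on it, since a longer length would lower its FPKM.

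Parvalbumin RNA, a defining marker of the early distal convoluted tubule in mouse kidney, was all but missing. Pvalb had 1 read in the 30 cortex libraries (SS HS7 replicate 2) and 2 reads in the 30 outer medulla libraries, out of 1156 M reads in all. A count of 0 allows up to 3 reads, or 0.104 to 0.243 CPM in a single library, which covers counting error only. Pvalb is thus at or under the floor everywhere and entered no comparison, so 8 of the 9 members passed the filter on low counts. The other markers listed for the segment were present in cortex: Calb1 (calbindin, shared with the connecting tubule) averaged 423 CPM, Egf 184, Cnnm2 72.8, Emx1 49.5, Sall3 12.4 and Slc41a3 2.09 CPM. In outer medulla, on that tissue's own scale, Egf averaged 248 and Slc41a3 6.29 CPM, above their cortex means. Of these 6 markers 1 was called higher and 4 lower in outer medulla. A change in Egf or Slc41a3 need not be one of this segment.

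The members divided between the tissues in very different ways. Slc12a3 fell from 730.9 ± 231.7 CPM in cortex to 16.1 ± 28.9 CPM in outer medulla (30 libraries each, all 60 on a common scale), a log2 fold change of -5.77 ± 0.28 (SE; edgeR adjusted p = 3.02e-25), with every outer medulla library under every cortex library. Wnk1 (-1.78 ± 0.06) and Trpm6 (-1.37 ± 0.07) were lower in outer medulla with no overlap as well, and Klhl3 (-1.75 ± 0.11) was lower in 30 of 30 libraries than the cortex mean. The scaffold Cul3 (-0.23 ± 0.04) and the kinase Oxsr1 (-0.14 ± 0.03) differed little, although both passed the test. Stk39, the SPAK kinase that also acts on the cotransporter NKCC2 of the thick ascending limb, was the only member higher in outer medulla, at 85.7 ± 25.1 CPM against 40.8 ± 7.21 CPM (log2 1.06 ± 0.07, adjusted p = 8.61e-19). Wnk4 did not pass, with 24.5 ± 7.51 against 26.9 ± 5.52 CPM (log2 -0.14, 95% interval -0.31 to 0.04, adjusted p = 0.161).

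In all 7 of the 8 tested members were called between the tissues, 1 higher and 6 lower in outer medulla, where 71.6% of 16326 genes were called (37.6% higher, 34% lower). In 3 members the libraries of the tissues did not overlap, against 3.82% of all genes. The median log2 fold change of the members was -0.80 and that of all genes 0.03. The fall of Slc12a3 was thus more than 4 log2 units larger than that of Trpm6 or Klhl3, and Wnk4 and Stk39 had no such fall. The thick ascending limb marker Slc12a1 ran opposite to Slc12a3, with a mean of 413 CPM in cortex and 4240 CPM in outer medulla, each on its tissue's own scale.

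**Figure D1:**
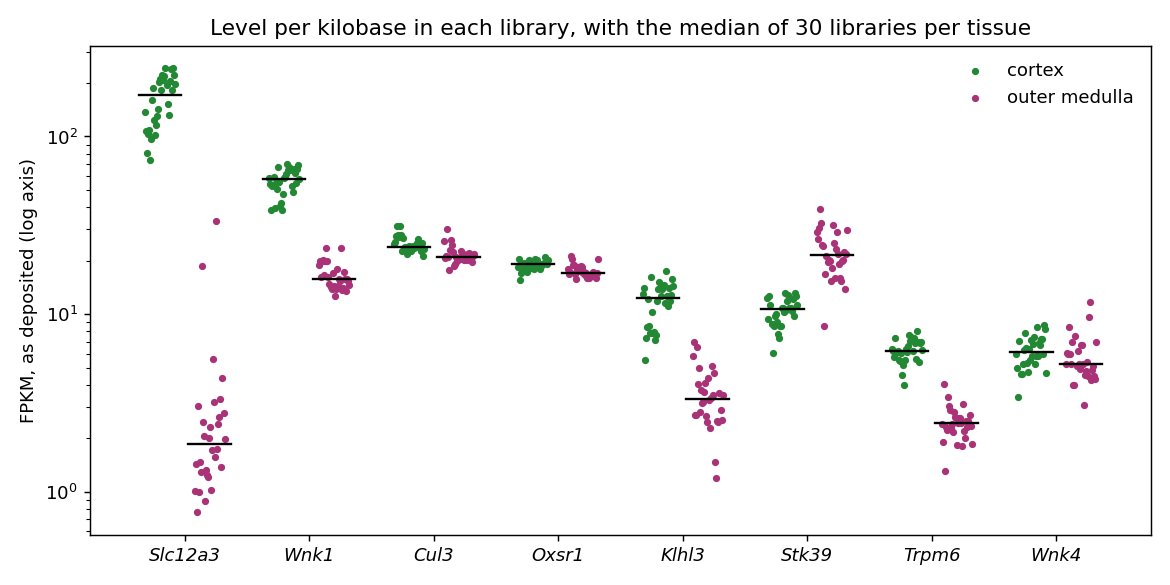
Deposited FPKM (log axis) of the 8 members with reads in most libraries, 1 point per library, 30 per tissue, with a line at the median; genes are ordered by their mean in cortex. Slc12a3 leads in cortex at a mean of 164.1 and drops to a median of 1.86 in outer medulla, where Stk39 and Cul3 lead with means of 22.4 and 21.6.

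Slc12a3 was higher in NOX4 than in SS cortex. At LS the 5 SS libraries had 544, 424, 320, 409 and 430 CPM, and the 5 NOX4 libraries had 833, 717, 870, 826 and 860 CPM. The lowest NOX4 library stood above the highest SS library, and the log2 fold change was 0.95 ± 0.20 (1.93-fold, edgeR adjusted p = 0.00109). The score of proximal tubule segment 3 markers (their mean log2 CPM) itself differed at LS, at 6.34 ± 0.22 (SD) in SS and 4.34 ± 0.43 in NOX4. With it as covariate the log2 fold change of Slc12a3 was 0.29 (adjusted p = 0.469), and such a fit cannot separate strain from score. At HS7 SS had 287, 384, 635, 735 and 488 CPM and NOX4 had 952, 762, 606, 531 and 810 CPM. Here the strains overlapped, and the difference of 0.53 ± 0.19 was not called (adjusted p = 0.0556).

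The 2 lowest NOX4 values at HS7 belong to the libraries C_62 and C_63, and without these the log2 difference was 0.74 with an adjusted p of 0.0322. At HS21 SS had 401, 456, 513, 558 and 788 CPM and NOX4 had 930, 715, 952, 866 and 775 CPM. The strains overlapped through SS replicate 5 alone, and the difference of 0.64 ± 0.19 was not called by edgeR (adjusted p = 0.112); without that replicate it was 0.82 (adjusted p = 0.0232). In the authors' deposited table the same comparison had an adjusted p of 0.012. Averaged over the diets Slc12a3 stood at 800.3 CPM in NOX4 against 491.4 CPM in the wild type, a log2 fold change of 0.71 ± 0.11 (1.63-fold, adjusted p = 2.76e-05), and 15 of 15 NOX4 libraries were above the SS mean.

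Over the diets together 6 of the 8 tested members were called between the strains in cortex, 5 higher and 1 lower in NOX4, where 31.7% of 15179 genes were called (16.7% higher, 15% lower). The median log2 fold change was 0.27 over the members and 0.00 over all genes. The members that rose beside Slc12a3 were Klhl3 (0.51 ± 0.12, adjusted p = 0.00129), Stk39 (0.31 ± 0.07, 0.00165), Wnk1 (0.30 ± 0.07, 0.00217) and Trpm6 (0.23 ± 0.06, 0.00485). The ligase scaffold Cul3 fell (-0.12 ± 0.04, 0.0303), with -0.23 at LS, -0.14 at HS7 and 0.01 at HS21. Its averaged call was lost without the filter on low counts (0.0705) and without any 1 of SS LS replicate 4, SS HS7 replicate 2, SS HS21 replicate 2, NOX4 HS7 replicate 1 or NOX4 HS21 replicate 4 (0.0525 to 0.0627). Wnk4 had 0.24 ± 0.10 (adjusted p = 0.0658) and Oxsr1 0.05 ± 0.03 (0.273), neither of which was called.

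**Figure D2:**
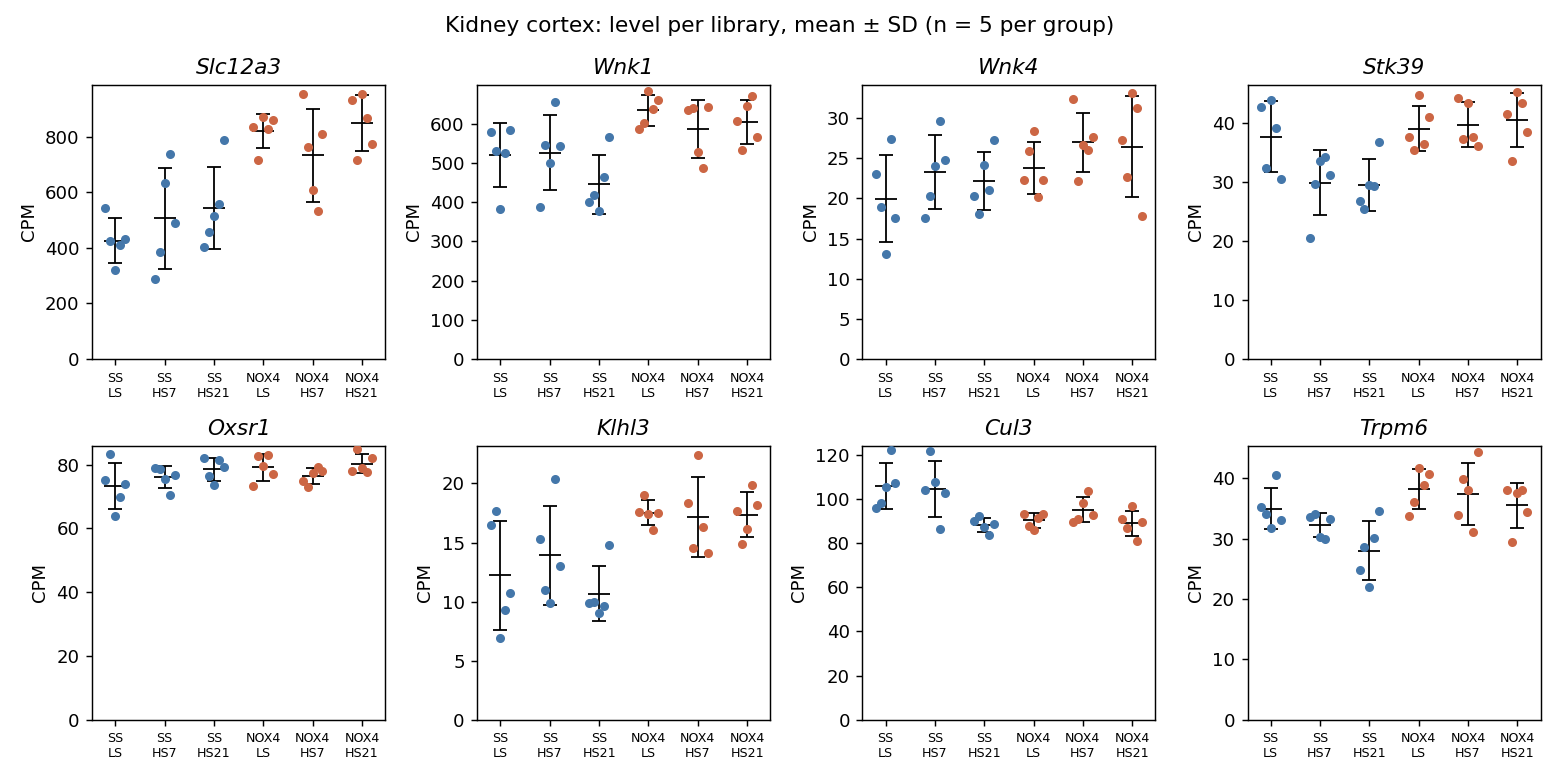
CPM in each cortex library (points; SS blue, NOX4 orange) with the group mean and SD (n = 5), for the 8 tested members by strain and diet. Slc12a3 at LS separates the strains completely, while Oxsr1 lies between 63.9 and 84.9 CPM in all 30 libraries.

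Markers of other cell types moved with strain in the same libraries. The markers of proximal tubule segment 3, the straight part at the border with the medulla, summed to 661.6 to 3657 CPM in SS cortex (median 1724) and 523.3 to 1463 CPM in NOX4 cortex (median 758.6), with 3 of 5 markers lower and 0 higher in NOX4. Connecting tubule and principal cell markers were higher in 7 of 9, intercalated cell markers in 6 of 6 and podocyte markers in 4 of 4, each with 0 lower. Markers of proximal tubule segments 1 and 2 were higher in 4 of 5 and lower in 0, and those of the thick ascending limb were higher in 2 and lower in 2 of 6. Tubular injury markers were lower in 4 of 4. Of 6 distal convoluted tubule markers outside the members, 4 were higher and 0 lower, against 16.7% and 15% of all genes. Their median log2 fold change was 0.42, and they include Egf and Slc41a3, which had higher means in outer medulla. In bulk tissue a larger share of distal convoluted tubule in the piece and more RNA per cell cannot be told apart.

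The segment 3 score (the mean log2 CPM of its 5 markers) itself differed between the strains in cortex. It was 5.67 ± 0.95 (SD) in SS and 4.39 ± 0.51 in NOX4, 15 libraries each. A fit with it as a covariate therefore cannot separate strain from score, and a lost call does not show which of them a member follows. In that fit none of the members was called between the strains averaged over diets, against 6 without it. The log2 difference of Slc12a3 became 0.31 (adjusted p = 0.10), that of Wnk1 0.13 (0.408), of Stk39 0.14 (0.388) and of Cul3 -0.06 (0.558), while those of Klhl3 (0.46, 0.0845) and Trpm6 (0.22, 0.143) moved little in size.

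At single diets fewer members were called. At LS 2 of 8 were called, where 22% of genes were (10.3% lower): Slc12a3, and Cul3 with 96.1 to 122 CPM in SS and 86.1 to 93.2 CPM in NOX4 (log2 -0.23 ± 0.07, adjusted p = 0.0223). These 2 and Wnk1 did not overlap between the strains, against 15.6% of all genes; Wnk1 had 382 to 584 CPM in SS and 587 to 683 CPM in NOX4 (0.29 ± 0.12, adjusted p = 0.0972). Cul3 lost its call without NOX4 replicate 2 or 3 or SS replicate 4 (adjusted p from 0.0527 to 0.0890) and without the low-complexity libraries (0.130). Without SS replicate 2, 4 members were called.

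At HS7 1 of 8 was called, where 17.4% of genes were (7.77% lower), namely Stk39 (0.41 ± 0.13, adjusted p = 0.0231). It had 20.6, 29.7, 33.6, 34.3 and 31.2 CPM in SS and 44.3, 37.2, 43.3, 37.7 and 36.1 CPM in NOX4, and was the only member without overlap there, against 7.47% of all genes. Stk39 was not called without C_62 and C_63 (adjusted p = 0.0906), without the low-complexity libraries (0.0552), without SS replicate 1 (0.0744) or without NOX4 replicate 1 (0.0586) or 3 (0.0603). Leaving out single libraries gave 0 to 3 called members, with 2 or 3 called without NOX4 replicate 4 or SS replicate 3 or 4.

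At HS21 edgeR called 0 of 8 in a comparison where it called only 1% of genes. An unadjusted p under 0.05 was found in 5 members, and in 1729 of 15179 genes. The median member difference, 0.39, was the highest of the 3 diets. Klhl3 had 9.91, 9.97, 9.04, 9.64 and 14.8 CPM in SS and 17.6, 14.9, 16.1, 19.9 and 18.2 CPM in NOX4, with no overlap (0.70 ± 0.20, adjusted p = 0.0887). It was the only member without overlap, against 7.42% of all genes. Stk39 had 0.45 ± 0.12 (0.0664), Wnk1 0.44 ± 0.12 (0.0782) and Trpm6 0.34 ± 0.11 (0.130). These differences were called in 4 members by DESeq2 and in 5 by limma voom, in 4 when the compared groups were fitted alone and in 4 without the low-complexity libraries; leaving out SS replicate 5 gave 5, and leaving out NOX4 replicate 2 gave 1. The authors' deposited table had 5 members under 0.05 at HS21, with adjusted p of 4.34e-05 for Klhl3, 0.00092 for Wnk1, 0.00157 for Stk39, 0.012 for Slc12a3 and 0.0415 for Trpm6. The share of all genes called was not counted for these alternatives or for the deposited comparisons. Their counts of members thus cannot be set against all genes.

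Few members were called for salt. The calls came from SS, but the interaction of strain and salt was called in 0 members, so a difference between the strains was not shown. In SS cortex at HS21 against LS, 2 of 8 members were called, both lower, where 16.5% of genes were called (8.42% higher, 8.04% lower). Cul3 fell from 96.1, 98.3, 106, 122 and 107 CPM to 89.9, 92.1, 87.2, 83.7 and 88.7 CPM (-0.26 ± 0.07, adjusted p = 0.0137). These values did not overlap, as in 13.8% of all genes. The magnesium channel Trpm6 fell from 35.2, 34.01, 31.7, 40.5 and 33.1 CPM to 24.8, 28.5, 21.9, 30.1 and 34.6 CPM (-0.32 ± 0.11, adjusted p = 0.0396). Here the groups overlapped, and leaving out any of 7 of the 10 libraries took the adjusted p of Trpm6 over 0.05, to as much as 0.141. With the segment 3 score as covariate neither was called (Cul3 -0.23, adjusted p = 0.0585; Trpm6 -0.33, 0.0697), and the 1 called member was another.

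Slc12a3 itself had 0.35 ± 0.19 at HS21 against LS in SS cortex (adjusted p = 0.214, 95% interval -0.03 to 0.73), with group means of 425.4 and 543 CPM. Stk39 had -0.35 ± 0.12 (adjusted p = 0.0502), Wnk1 -0.22 ± 0.12, Klhl3 -0.19 ± 0.20, Wnk4 0.15 ± 0.17 and Oxsr1 0.10 ± 0.06. Without the low-complexity libraries, which make up 3 of the 5 LS libraries here, no member was called (Cul3 -0.21, adjusted p = 0.0997; Trpm6 -0.29, 0.207), and none was called without SS LS replicate 4. Leaving out SS HS21 replicate 1, 2, 3 or 4 or SS LS replicate 1 gave 1 called member.

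Between HS7 and HS21 in SS cortex only Cul3 was called (-0.24 ± 0.07, adjusted p = 0.032), where 9.25% of genes were called (4.51% higher and 4.74% lower). It lost its call without SS HS7 replicate 2 or without any of SS HS21 replicates 1, 3, 4 and 5. In the authors' deposited table its adjusted p was 0.0522. After 7 days edgeR called 0 members in SS cortex (2.25% of genes called, 1.17% higher and 1.07% lower), and DESeq2 and limma voom called 0 too. Unadjusted, 1 member, Stk39 at -0.34 ± 0.13, and 2975 of 15179 genes had a p under 0.05. In NOX4 cortex no member and no other gene was called for salt (0% of genes in each comparison), and DESeq2 and limma voom called 0 members. Unadjusted, 0 members had a p under 0.05 in NOX4 cortex. Over all genes these were 782 for HS7 against LS, 236 for HS21 against LS and 559 for HS21 against HS7. There the 95% interval of Slc12a3 was -0.55 to 0.21 for HS7 against LS and -0.33 to 0.43 for HS21 against LS. The strains' responses in cortex did not differ beyond the test: edgeR called 0 members for the interaction at HS7 (0.0132% of genes called) and 0 at HS21 (1.08% of genes, 0.567% lower), as did DESeq2 and limma voom. Unadjusted, 0 members were under 0.05 at HS7, against 1980 of 15179 genes, and 2 at HS21, against 2438 genes. These 2 were Stk39 at 0.40 ± 0.18 and Cul3 at 0.24 ± 0.10.

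**Figure D3:**
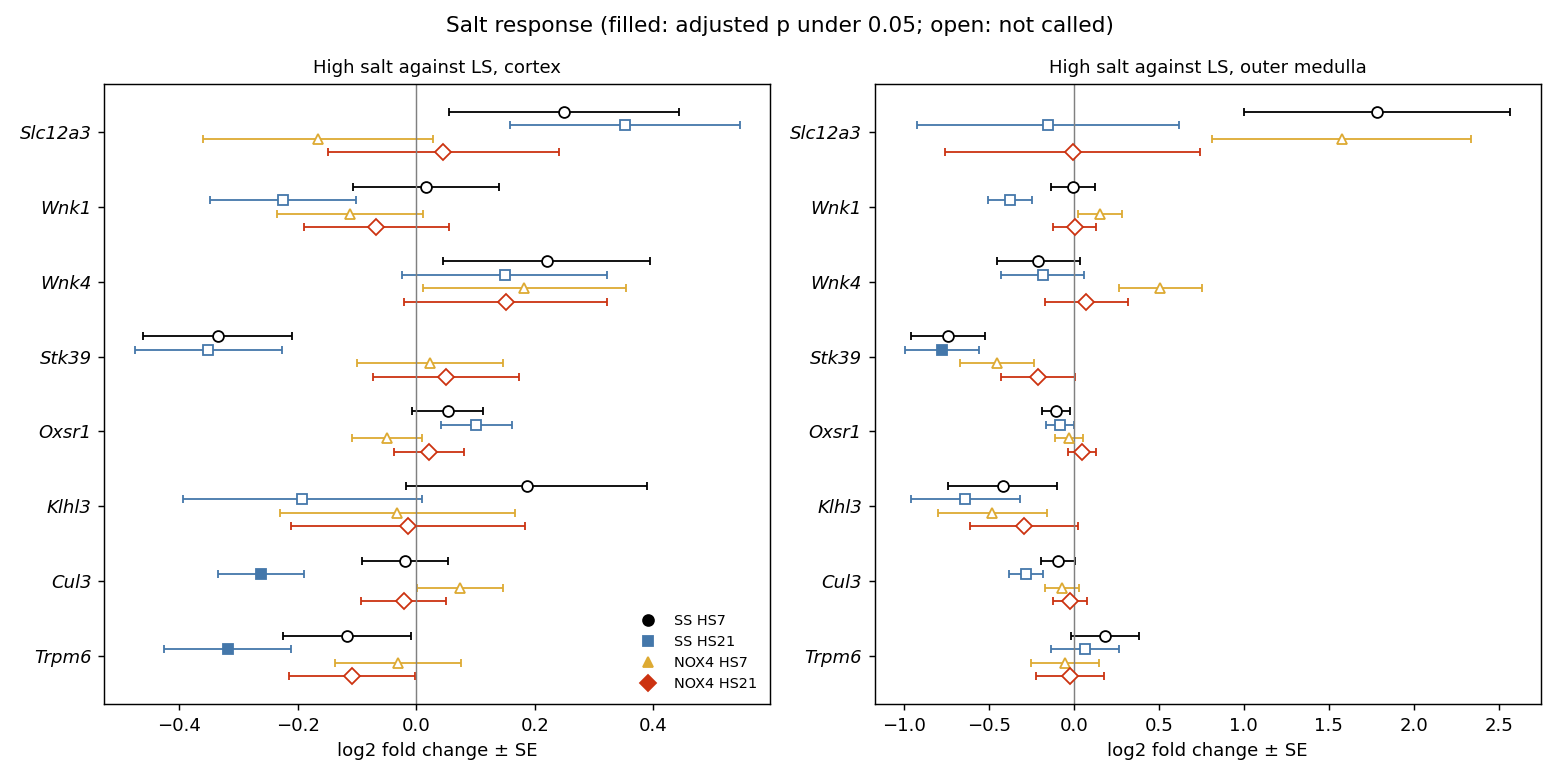
Log2 fold change with its SE of each tested member for HS7 and HS21 against LS, in SS and in NOX4, in cortex (left) and outer medulla (right); filled symbols passed an edgeR adjusted p under 0.05. The called values are Cul3 and Trpm6 in SS cortex at HS21 and Stk39 in SS outer medulla at HS21.

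In the outer medulla of SS, Stk39 was lower on high salt than at LS. Here 3 of 5 LS and 3 of 5 HS7 libraries were of low complexity, against 0 at HS21. Stk39 had 127, 114, 132, 176 and 139 CPM at LS, 107, 106, 36.5, 71.9 and 90.7 CPM at HS7 and 85.0, 88.0, 86.7, 64.2 and 78.6 CPM at HS21. All LS libraries stood above all high-salt libraries. The log2 fold change at HS21 was -0.78 ± 0.22 (0.584 times, adjusted p = 0.0242), and Stk39 was the only 1 of 8 members called, where 9.86% of genes were called (4.56% lower) and 12% did not overlap. It lost its call without SS LS replicate 4 (adjusted p = 0.0684) or SS HS21 replicate 4 (0.0784) and with the segment 3 score as covariate (-0.55, 0.0541), while leaving out SS LS replicate 2, 3 or 5 gave 2, 3 and 2 called members. In the authors' deposited table Stk39 (adjusted p = 1.1e-06) and Wnk1 (log2 -0.38, 0.000579) were under 0.05.

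At HS7 the value of Stk39 was -0.74 ± 0.22 (adjusted p = 0.0601), so that edgeR called 0 members in a comparison with 2.37% of genes called (1.55% higher) and 2.02% without overlap. There 2 members had an unadjusted p under 0.05, as had 3451 of 15799 genes. DESeq2 called 1 and limma voom 0, and leaving out SS HS7 replicate 1 or 2 gave 1. From HS7 to HS21 in SS edgeR called 0 (0.652% of genes), as did DESeq2 and limma voom. Unadjusted, 2 members and 2267 genes were under 0.05 in that comparison. In NOX4 outer medulla Stk39 had 138, 110, 70.1, 102 and 125 CPM at LS and 88.3, 97.2, 60.1, 96.2 and 128 CPM at HS21 (-0.21 ± 0.22), with the groups overlapping. No gene was called for salt there (0%), and DESeq2 and limma voom called 0 members. For HS7 against LS, HS21 against LS and HS21 against HS7, 3, 0 and 1 members had an unadjusted p under 0.05. Over all 15799 genes these numbers were 2162, 249 and 1338.

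The interaction of strain and salt was called in 0 members of the outer medulla at HS7 (0% of genes) and at HS21 (0.0253%), although limma voom called 2 at HS21. Unadjusted, 1 member was under 0.05 at HS7 and 1 at HS21, against 1676 and 1466 of 15799 genes. The drop of Stk39 at HS21 was thus called in SS and not in NOX4, but a difference between the strains was not shown. Tubular injury markers in these libraries summed to 3916 to 5447 CPM at LS and 5556 to 9148 CPM at HS21 in SS, while thick ascending limb markers summed to 16400 to 20970 CPM at LS and 10110 to 14560 CPM at HS21. Their part in the change of Stk39 was not tested.

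**Figure D4:**
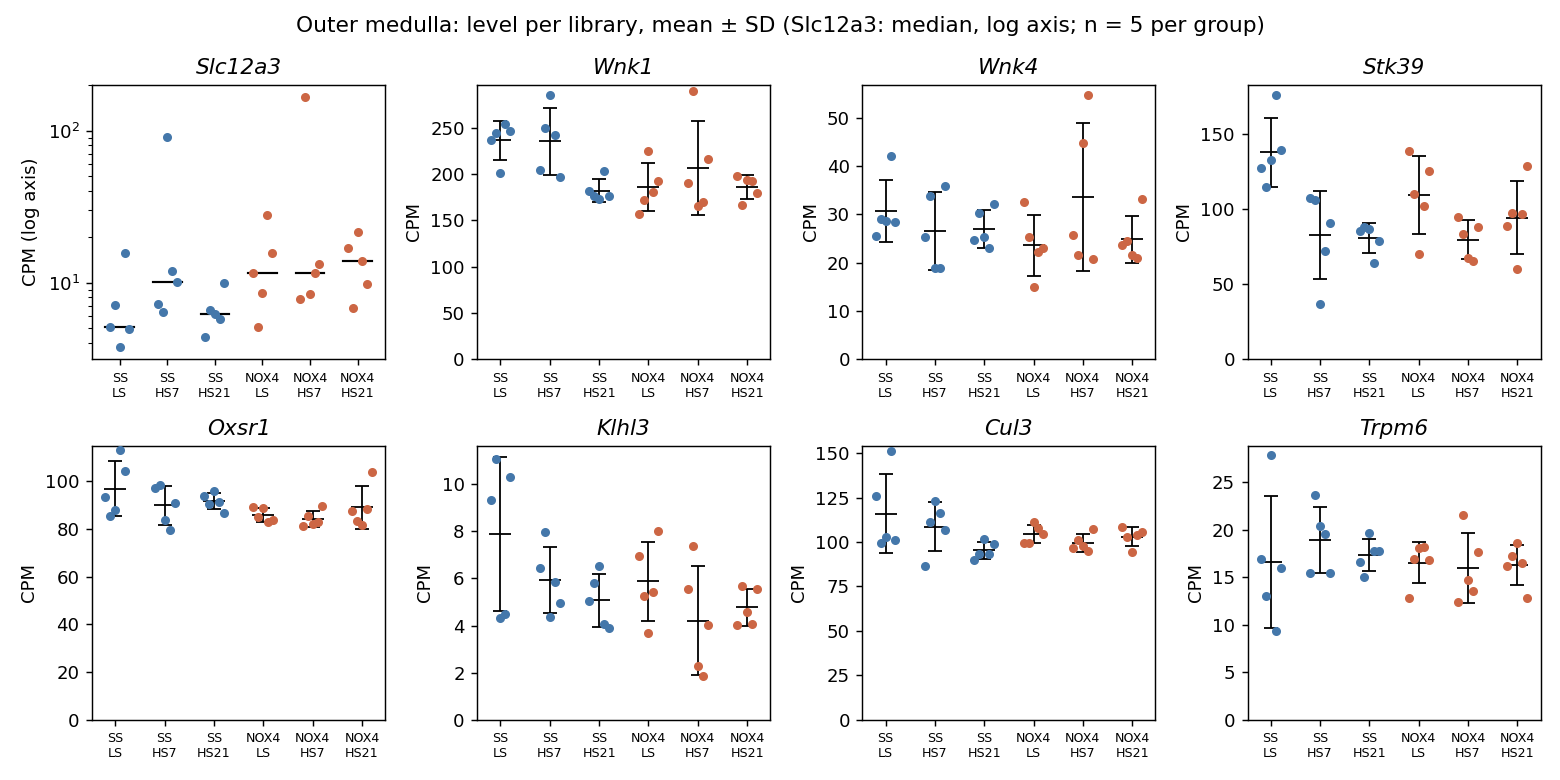
CPM in each outer medulla library (points; SS blue, NOX4 orange) with the group mean and SD (n = 5), by strain and diet; for Slc12a3 the axis is logarithmic and the line is the median. Stk39 in SS is highest at LS, and Slc12a3 has 1 high library in each HS7 group, at 90.6 and 166 CPM.

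Between the strains no member was called in outer medulla. Averaged over diets edgeR called 0 of 8 (30.4% of 15799 genes called), DESeq2 0 and limma voom 2. Unadjusted, 2 members and 6540 genes were under 0.05. At LS edgeR called 0 members (14.8% of genes, 8.8% higher and 6.05% lower). It also called 0 at HS7 (9.61%, 5.23% higher and 4.39% lower) and at HS21 (1.63%, 1.33% lower). Unadjusted, 2, 0 and 0 members were under 0.05 at the 3 diets, against 4871, 4049 and 2804 genes. DESeq2 called 1 at LS and limma voom 2 at LS and 1 at HS21. Leaving out single libraries gave at most 1 called member: without NOX4 LS replicate 3 at LS, without SS HS7 replicate 3 at HS7, and without NOX4 HS21 replicate 5, NOX4 HS7 replicate 2, NOX4 LS replicate 3 or SS HS7 replicate 3 over the diets. By the authors' own deposited comparisons 1 member in outer medulla was under 0.05 at LS (Wnk1, log2 -0.35, adjusted p = 0.0246) and 2 at HS21 (Slc12a3, 1.09, 0.00193; Cul3, 0.13, 0.0402).

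Slc12a3 in outer medulla rested on a pair of libraries. In 28 of the 30 it lay between 3.80 and 27.96 CPM (median 8.50), but SS HS7 replicate 3 had 90.6 CPM and NOX4 HS7 replicate 2 had 166 CPM. The same pair had the highest sums of markers of proximal tubule segments 1 and 2, which lie in cortex, with 5333 and 2977 CPM. The library ranked 3 for these sums, NOX4 LS replicate 3 with 2453 CPM, had 8.61 CPM of Slc12a3. The part of cortex tissue in the Slc12a3 values was not tested. The strain difference over diets was 0.90 ± 0.44 with every library (adjusted p = 0.123), 1.40 without SS HS7 replicate 3 (0.00521) and 0.23 without NOX4 HS7 replicate 2 (0.645). At HS7 it turned from 0.71 ± 0.75 to -1.30 without the latter and to 2.20 without the former.

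Wnk1 and Klhl3 differed between the strains by tissue. Wnk1 was called higher in NOX4 cortex, while in outer medulla its log2 difference over diets was -0.17 ± 0.07 (adjusted p = 0.0807). The difference of these differences, a test added after the data were seen, was -0.45 ± 0.11 (adjusted p = 0.00341). Klhl3 had -0.34 ± 0.18 in outer medulla (0.170), and its difference of differences was -0.82 ± 0.22 (0.0082). These were 2 of 8 members called, both lower, where 11% of genes were called (3.48% lower); without the low-complexity libraries 4 members were called. The segment 3 markers ran the other way between strains in outer medulla, from 303.9 to 5216 CPM in SS (median 1244) and from 1359 to 6232 CPM in NOX4 (median 3778), and their part in these differences was not tested.

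**Figure D5:**
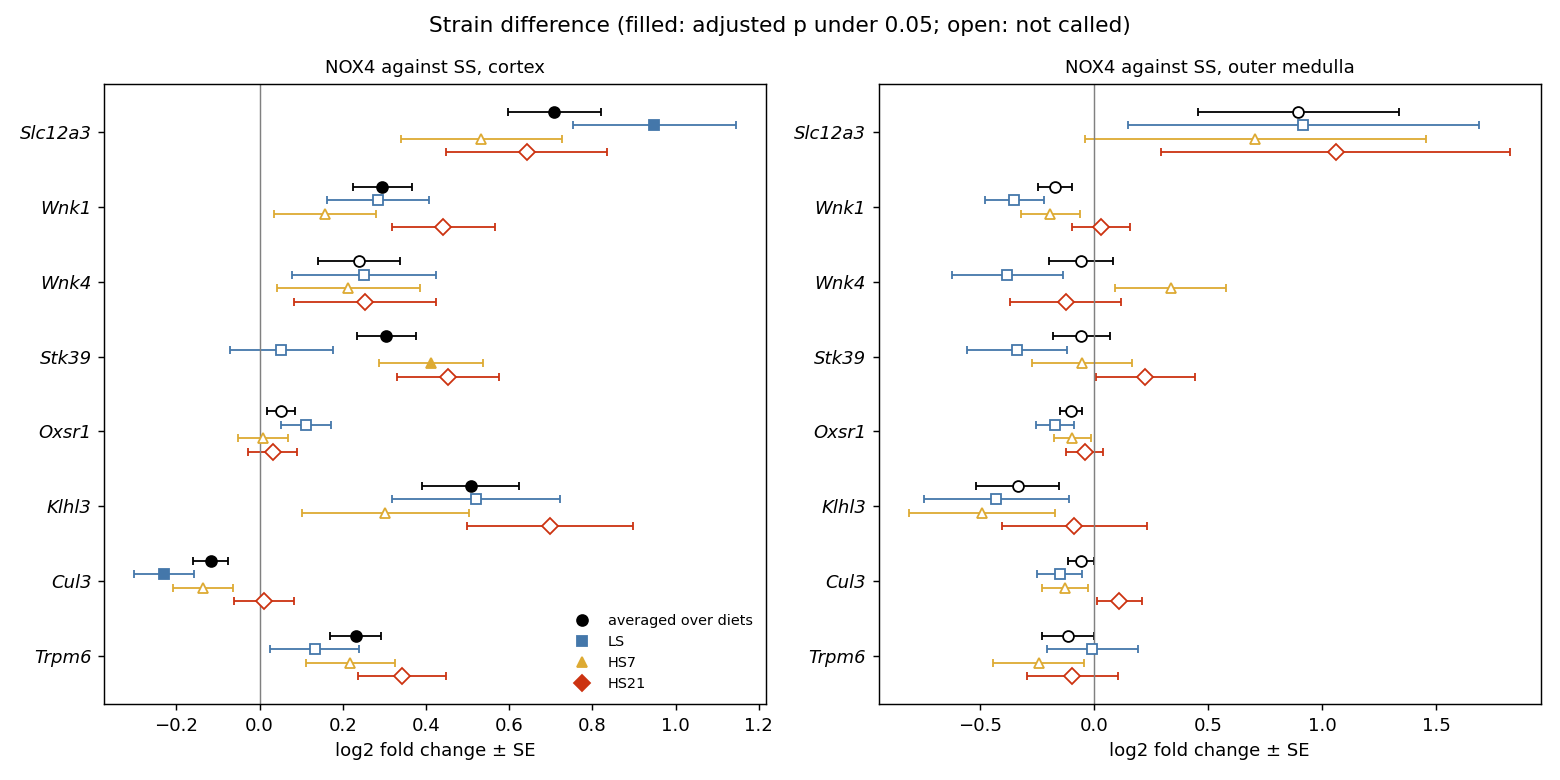
Log2 fold change of NOX4 against SS with its SE for each tested member, averaged over diets and at each diet, in cortex (left) and outer medulla (right; wider axis); filled symbols passed an edgeR adjusted p under 0.05. In cortex the averaged values of Slc12a3 (0.71), Klhl3 (0.51) and Wnk1 (0.30) lie to the right of 0, while in outer medulla those of Klhl3 (-0.34) and Wnk1 (-0.17) lie to the left and no symbol is filled.

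Ratios within a library were formed for Trpm6, Wnk4 and Klhl3, to set them against Slc12a3 in the same piece of cortex. On the common scale Slc12a3 averaged 730.9 CPM in cortex and 16.1 CPM in outer medulla. Wnk4 averaged 26.9 and 24.5, Trpm6 38.9 and 14.95, and Klhl3 16.7 and 4.97 CPM. These genes thus need not be made by the same cells, and a ratio need not hold the amount of the segment constant. The log2 ratio of Trpm6 to Slc12a3 at LS was -3.59 ± 0.26 (SD, n = 5) in SS and -4.43 ± 0.12 in NOX4, with no overlap, and the difference of -0.84 had an exact permutation p of 0.00794, the smallest that 5 libraries against 5 allow. The ratio of Wnk4 to Slc12a3 at LS was -4.43 ± 0.30 in SS and -5.12 ± 0.24 in NOX4 (difference -0.68, exact p = 0.00794). Both ratios at LS were thus lower in NOX4, in 5 of 5 libraries against the SS mean. In SS the Trpm6 ratio went from -3.59 ± 0.26 at LS to -4.26 ± 0.26 at HS21 (difference -0.66, exact p = 0.00794).

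After adjustment over the 21 ratio tests 0 passed, these 3 reaching 0.0556 each, and 6 of the 21 had an unadjusted exact p under 0.05. Without NOX4 HS7 replicate 1, 4 of the 21 passed. The ratio of Klhl3 to Slc12a3 differed by -0.36 between the strains at LS (exact p = 0.0714) and by 0.04 at HS21 (0.754). A ratio does not show which of its genes changed.

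The genes whose log2 CPM was most like that of Slc12a3 were sought across the 30 cortex libraries. Of 12449 genes ranked, among the highest Pearson correlations were those of Degs2 (0.965), the proton pump subunit gene Atp6v1b1 (0.94), Hsd11b2 (0.932), which encodes the enzyme that protects the mineralocorticoid receptor from glucocorticoids, Tmem52b (0.922) and Ckmt1b (0.909). The members came much lower: Wnk1 at 0.785 (rank 239), Wnk4 at 0.659, Stk39 at 0.629, Klhl3 at 0.628, Trpm6 at 0.427, Oxsr1 at 0.236 and Cul3 at -0.613. These libraries share strain, diet and dissection differences, and after removal of group means the values were 0.918 for Degs2, 0.822 for Wnk1, 0.332 for Klhl3 and 0.272 for Trpm6.

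Other genes of the pathway were read from 2 lists. Of 24 further genes of the WNK pathway and its transporters, 23 were tested in cortex, and between the strains over diets 8 were higher and 3 lower in NOX4, against 16.7% and 15% of all genes, with a median of -0.03. Among those with the smallest p were Bsnd (0.67 ± 0.09), which encodes barttin, Rbx1 (0.53 ± 0.08), the RING subunit of cullin ligases, and the phosphatase inhibitor gene Ppp1r1a (0.54 ± 0.09). In SS cortex at HS21 against LS 1 of the 23 was higher, Rbx1 (0.75 ± 0.14, adjusted p = 0.000966), and 3 were lower: Cops5 (-0.35 ± 0.07, 0.00148), a subunit of the signalosome that acts on cullins, Slc12a1 (-0.83 ± 0.19, 0.00399) and Cab39l (-0.37 ± 0.11, 0.0207). The median over the list was -0.11, and of all genes 8.42% were called higher and 8.04% lower.

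Of 18 magnesium and calcium handling genes listed for the segment 17 were tested. In NOX4 cortex over diets 7 were higher and 1 lower, against 16.7% and 15% of all genes, with a median of 0.22. The 4 with the smallest p were the magnesium transport gene Cnnm2 (0.33 ± 0.06), the calcium pump gene Atp2b4 (0.29 ± 0.06), Fxyd2 (0.32 ± 0.06), a regulator of the sodium pump, and the sodium-calcium exchanger gene Slc8a1 (0.59 ± 0.13). In SS cortex at HS21 against LS 0 of the 17 were higher and 2 lower, near the 8.04% of all genes called lower, namely Trpm7 (-0.33 ± 0.09, adjusted p = 0.00971), the channel kinase related to Trpm6, and Egf (-0.53 ± 0.18, 0.0406), a growth factor known to stimulate magnesium uptake. The median over the list was -0.10. Cnnm2, Egf, Slc41a3 and Calb1 are also among the distal convoluted tubule markers counted above, so the counts of the lists are not separate.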

How the data were processed

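Per the labels' protocols, RNA of snap-frozen tissue was extracted with Trizol and made into poly(A)-enriched libraries. Per the submitters' processing notes, the authors used HISAT2 2.0.5, StringTie 1.3.3b and featureCounts 1.5.0-p3; the genome build and strandedness are not given in the sources used here, so reads of overlapping antisense genes cannot be told apart. Per the file headers, the authors deposited a raw read count and an FPKM per gene and library, gene lengths, and a log2 fold change, p-value and adjusted p-value for their own comparisons. Deposited positions of the members (build not stated) are Slc12a3 (ENSRNOG00000057072) chromosome 19, 11106033 to 11144641; Wnk1 (ENSRNOG00000009956) 4, 152452848 to 152578446; Wnk4 (ENSRNOG00000020441) 10, 89181165 to 89198213; Stk39 (ENSRNOG00000024808) 3, 54359451 to 54625414; Oxsr1 (ENSRNOG00000013136) 8, 127920349 to 128009951; Klhl3 (ENSRNOG00000019533) 17, 6935860 to 7029240; Cul3 (ENSRNOG00000015633) 9, 86044485 to 86103158; Pvalb (ENSRNOG00000006471) 7, 119429019 to 119441487; and Trpm6 (ENSRNOG00000013053) 1, 234479289 to 234596971.

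Counts of all genes passing filterByExpr were tested in R 4.3.3 with edgeR 4.0.16 (TMM scaling, quasi-likelihood F test, 1 coefficient per group, 30 libraries of a tissue or all 60), adjusted by Benjamini-Hochberg over every gene tested and called at 0.05. A standard error is the log2 fold change over the square root of F. CPM uses TMM-scaled library totals. Ratios used CPM from counts plus 0.5 in 2-sided exact permutation tests over all splits of 5 against 5; Pvalb gave no ratio, which left 21 tests. Alternatives used DESeq2 1.42.0 and limma 3.58.1. Named genes are all members, the 6 genes most like Slc12a3, up to 4 called genes per list with the smallest p, and Nox4 (1 gene that this rule names is not reported here); single libraries and markers are named where a result turns on them. Members, lists and the low-complexity rule were chosen with earlier results of these data known. Of the marker symbols, Klk1 and Hba-a1 matched no gene. Samples of the same replicate number were not treated as pairs. Between cortex and outer medulla of the same strain, diet and number, deviations from group means correlated at -0.184 to 0.237. Of these 30 pairs 5 were over 0.1. This check cannot exclude that both pieces came from the same rat, and the tests between tissues treat all 60 libraries as separate.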

Additional observations from a re-analysis of the deposited data

Results flagged for a closer look

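In 7 of the 96 groups of 5 libraries tested for the members, 1 library lay far from the other 4, and chance gives about 1 in 20. For Slc12a3 in outer medulla these were SS LS replicate 4 (15.7 CPM, others 3.80 to 7.12), SS HS7 replicate 3 (90.6 CPM, others 6.45 to 11.95) and NOX4 HS7 replicate 2 (166 CPM, others 7.80 to 13.2). Wnk4 in SS LS outer medulla replicate 4 had 42.1 CPM (others 25.6 to 29.05), in the same library as the first Slc12a3 value. Wnk1 in SS HS21 outer medulla replicate 4 had 203 CPM (others 174 to 182). Trpm6 in NOX4 LS outer medulla replicate 1 had 12.8 CPM (others 16.8 to 18.1). Klhl3 in SS HS21 cortex replicate 5 had 14.8 CPM (others 9.04 to 9.97).

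For 2 members the strain difference itself differed between the tissues in edgeR's test over all 60 libraries: outer medulla minus cortex was -0.45 for Wnk1 (adjusted p = 0.00341) and -0.82 for Klhl3 (0.0082).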

How the results depend on the processing

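Of 989 values of single members under alternatives, 920 kept their direction and their side of the threshold, 52 lost the call, 15 gained it and 2 reversed. The reversals were both of Slc12a3 in outer medulla between strains: -1.30 at HS7 without NOX4 HS7 replicate 2, and -0.24 at LS with the segment 3 score as covariate. Without SS HS7 replicate 3 the HS7 value was 2.20 (adjusted p = 0.0304). The count of 7 members called between tissues was 7 without any 1 library. With the segment 3 score the count was 0 for strain over diets, at LS and at HS7 in cortex, 1 for HS21 against LS in SS cortex and 2 for that comparison in outer medulla (in cortex not Cul3 or Trpm6, and in outer medulla not Stk39, whose calls were lost), and 1 for strain over diets and at LS there. The score itself differed between the strains, so strain and score cannot be separated in these fits. Without filter on low counts the count was 1 for strain at LS and for HS21 against LS in SS, and 0 for HS21 against HS7 in SS, all in cortex. With the compared groups alone it was 4 for strain at HS21, 0 at HS7, 1 for HS21 against LS and 0 for HS21 against HS7 in SS cortex; in outer medulla 1 for strain at HS21, 1 at LS and 2 for HS21 against LS in SS. DESeq2 gave 4 for strain at HS21 and 2 at HS7 in cortex, and in outer medulla 3 for HS21 and 1 for HS7 against LS in SS and 1 for strain at LS. Limma voom gave 5 for strain at HS21 in cortex, and in outer medulla 3 for HS21 against LS in SS, 1 for strain at HS21, 2 at LS, 2 over diets and 2 for the HS21 interaction. Between the strains at HS7 in cortex it called Slc12a3 and not Stk39. It did not call Trpm6 for HS21 against LS in SS cortex. Without the low-complexity libraries it was 4, 3 and 1 for strain at HS21, HS7 and LS and 0 for HS21 against LS in SS cortex; in outer medulla 2 for HS21 against LS in SS, 1 for strain at LS and 2 over diets; and 4 for the strain difference between tissues. The causes were not tested, apart from the smaller number of libraries where some were left out. The share of all genes called was not counted under the alternatives, so these counts of members cannot be set against all genes.

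Leaving out single libraries gave ranges of 5 to 7 for strain over diets in cortex, 1 to 4 at LS, 0 to 3 at HS7 and 0 to 5 at HS21, 0 to 3 for HS21 against LS and 0 to 1 for HS21 against HS7 in SS cortex; in outer medulla 0 to 1 for strain over diets, at LS and at HS7, 0 to 3 for HS21 and 0 to 1 for HS7 against LS in SS; and 0 to 4 ratios. The replicate block changed 1 count by over 1.5 times, HS7 against LS in SS outer medulla, to 1. Samples with the same number correlated over 0.1 in 30 of 150 pairs, and in 0 of 30 pairs of groups did every pair; 32 same-numbered deviations were the best match. The block gave 3 in place of 2 for HS21 against LS in SS cortex and changed no other count. Ratios of Pvalb to Slc12a3 were planned and not run, as Pvalb had 3 reads. Pvalb was at or under the floor, and Klhl3 ran from 1.84 to 11.1 CPM in outer medulla. Whether depth limits either of them was not tested.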
